A study of Oryza sativa with 4 samples.

Results

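The rice bZIP proteins OsbZIP42, OsbZIP69 and OsbZIP77, relatives of FD, were compared at the sites where all of them placed a peak at almost the same base. A site was taken from the OsbZIP69 list when an OsbZIP42 peak centre and an OsbZIP77 peak centre both lay within 10 bp of the OsbZIP69 centre on the same chromosome. This rule chose 656 of the 1107 OsbZIP69 peaks, or 59.3% (exact 95% interval 56.3 to 62.2). They corresponded to 654 of the 2059 OsbZIP77 peaks, or 31.8% (29.8 to 33.8), and to 654 of the 28323 OsbZIP42 peaks, or 2.31% (2.14 to 2.49). The 4 lists of the series held 31683 peaks, with 194 of them in the control list. The sites were thus chosen by peak positions in these same lists, so the number of sites and the closeness of their centres are descriptions and were not tested.

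The proteins were OsbZIP42 (labelled HBF1), OsbZIP69 (labelled FD4) and OsbZIP77 (labelled FD1), each carrying a HALO tag and made in rabbit reticulocyte lysate, per the labels' protocol. The control was HALO-GST, a tagged protein without a transcription factor's DNA-binding domain. All were offered naked, fragmented leaf DNA of the cultivar Nipponbare in DAP-seq, an assay that sequences the DNA a protein retains outside the cell. Chromatin and the partners that a protein has in the shoot apex are therefore absent, and each protein had 1 library without a replicate, so no difference between proteins can be set against a replicate spread.

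bZIP proteins grip DNA as dimers: a leucine zipper joins the partners and the basic region of each reads one side of a short, nearly symmetric element, in plants often with an ACGT core. FD proteins bring florigen, the mobile protein that signals flowering, to DNA in the shoot apex, where the complex switches on genes of floral meristem identity. HBF1 is known in rice as a florigen-binding bZIP that delays flowering, whereas FD1 and FD4 are known as partners that promote it. No genome of the build behind these coordinates was used here, so the sites carry no gene names and no sequences.

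At most shared sites, the listed centres of OsbZIP77 and OsbZIP69 were on the same base, and that of OsbZIP42 was on a neighbouring base. Each list was called on a single library. Whether differences of 1 bp come from how centres were placed in each list was not tested. The OsbZIP77 centre coincided with the OsbZIP69 centre at 639 of 656 sites, or 97.4% (95.9 to 98.5). The OsbZIP42 centre lay exactly 1 bp from the OsbZIP69 centre at 619 sites, or 94.4% (92.3 to 96.0). It coincided with the OsbZIP69 centre at 0 of 656 (exact 95% interval 0 to 0.561%), counting error alone considered. Both features held together at 608 sites, or 92.7% (90.4 to 94.6).

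**Figure D1:**
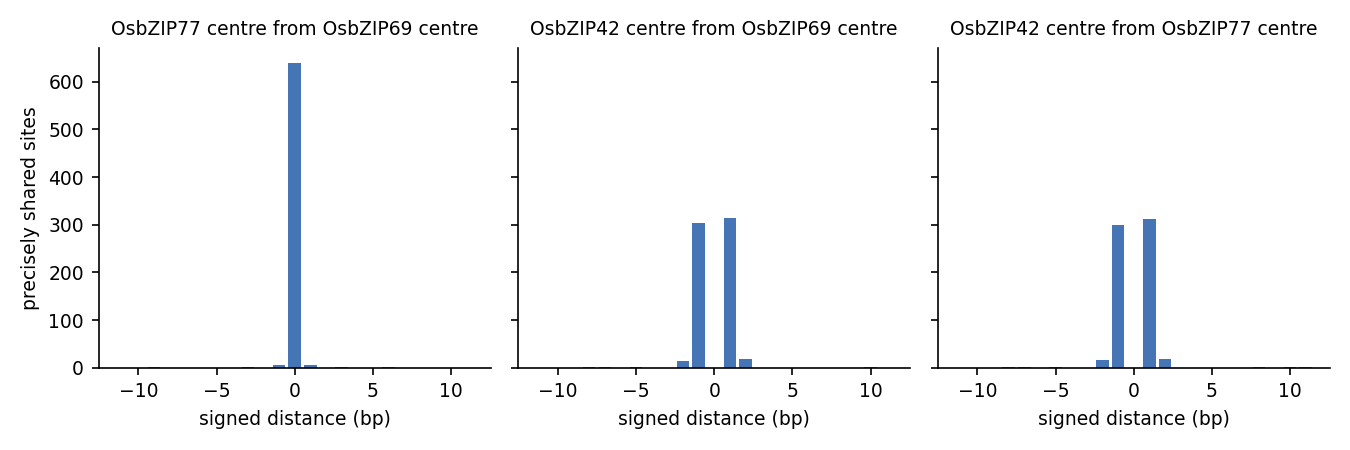
Number of precisely shared sites (y axis) at each signed distance in bp (x axis) between the peak centres of each pair of proteins. OsbZIP77 and OsbZIP69 coincide at 639 of 656 sites, whereas the OsbZIP42 centre stands 1 bp to the right of OsbZIP69 at 315 sites, 1 bp to the left at 304 and on the same base at 0.

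The step to OsbZIP42 went either way. Counting along the reference strand, OsbZIP42 stood 1 bp to the right of OsbZIP69 at 315 sites and 1 bp to the left at 304, so that 50.9% (46.9 to 54.9) of these steps went right. Larger steps were few: 18 sites had OsbZIP42 2 bp to the right, 15 had it 2 bp to the left, and 4 sites lay between 5 and 10 bp. Signal was similar for both directions, with overlapping intervals. The median OsbZIP42 signal was 98.4 (90.4 to 107) at right steps and 92.8 (87 to 99.6) at left steps, the OsbZIP69 medians were 29.3 and 28, and the OsbZIP77 medians 29 and 28. Signal here is the authors' own value per peak, whose unit and scaling between libraries are not given in the sources used here, and intervals on medians cover the counting of sites alone.

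The same step was seen where one of the FD proteins was missing. Of 213 OsbZIP69 peaks with an OsbZIP42 centre within 10 bp but no OsbZIP77 centre within 100 bp, 188 stood exactly 1 bp from OsbZIP42 (88.3%, 83.2 to 92.3) and 0 coincided with it. Of 999 OsbZIP77 peaks with OsbZIP42 within 10 bp and no OsbZIP69 within 100 bp, 931 stood 1 bp away (93.2%, 91.5 to 94.7) and 5 coincided. The 1 bp step was therefore not limited to the sites of all 3 proteins.

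The limit of 10 bp fell in a sparse part of the distances. Among the 815 OsbZIP69 peaks with both other centres within 100 bp, the larger of both distances was at most 1 bp at 617 sites, 2 bp at 30, 3 to 10 bp at 9, 11 to 20 bp at 38, 21 to 50 bp at 93 and 51 to 100 bp at 28. The members at 9 and 10 bp had OsbZIP77 signals below the median over the members, 28.6. The member at chr7:5659272-5659472, with OsbZIP42 10 bp away, had an OsbZIP42 signal of 28, an OsbZIP69 signal of 32 and an OsbZIP77 signal of 19. Members at chr6:24936999-24937199 and chr7:18743891-18744091, both with OsbZIP77 9 bp away, had OsbZIP69 signals of 12 and 11 and OsbZIP77 signals of 13 and 14. Just outside, 3 sites had OsbZIP77 11 bp away. At chr2:19469527-19469727 OsbZIP42 had 138, OsbZIP69 93 and OsbZIP77 26.8, and at chr11:27671521-27671721 they were 346, 15.3 and 18.5.

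Sites left out by the limit differed in which centre stood off. OsbZIP42 alone was more than 10 bp away at 64 of them and OsbZIP77 alone at 65. At the other 30 both stood off, and at 23 of those OsbZIP42 and OsbZIP77 lay within 10 bp of each other, with OsbZIP69 apart. The highest-ranked site left out was the strongest OsbZIP69 peak of all, chr12:17464091-17464291, where OsbZIP42 stood 1 bp away but OsbZIP77 22 bp. The median OsbZIP42 signal was 159 (144 to 179) at the 159 sites left out against 96 (91.5 to 101) at the members. For OsbZIP69 it was 29 in both sets, and for OsbZIP77 27.1 against 28.6.

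The sites sat high in the OsbZIP42 list and were spread through the lists of the FD proteins. They made up 2.31% of the OsbZIP42 list, 31.8% of the OsbZIP77 list and 59.3% of the OsbZIP69 list. A set that fills more of a list cannot stand as high in it, so the median ranks below do not compare the proteins. The median site stood at 6.14% of the OsbZIP42 list (5.55 to 6.73), at 25.4% of the OsbZIP77 list (24.6 to 27.7) and at 40.8% of the OsbZIP69 list (36.9 to 44.1), where rank is by signal, ties are averaged and a low percentage is strong. Their OsbZIP42 signals ran from 11 through a median of 96 to 509, their OsbZIP69 signals from 10 through 29 to 215, and their OsbZIP77 signals from 10 through 28.6 to 99. In the OsbZIP42 list 455 of the 656 sites were in the top 10% and 608 in the top 25%, while 15 were in the lower 50%.

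**Figure D2:**
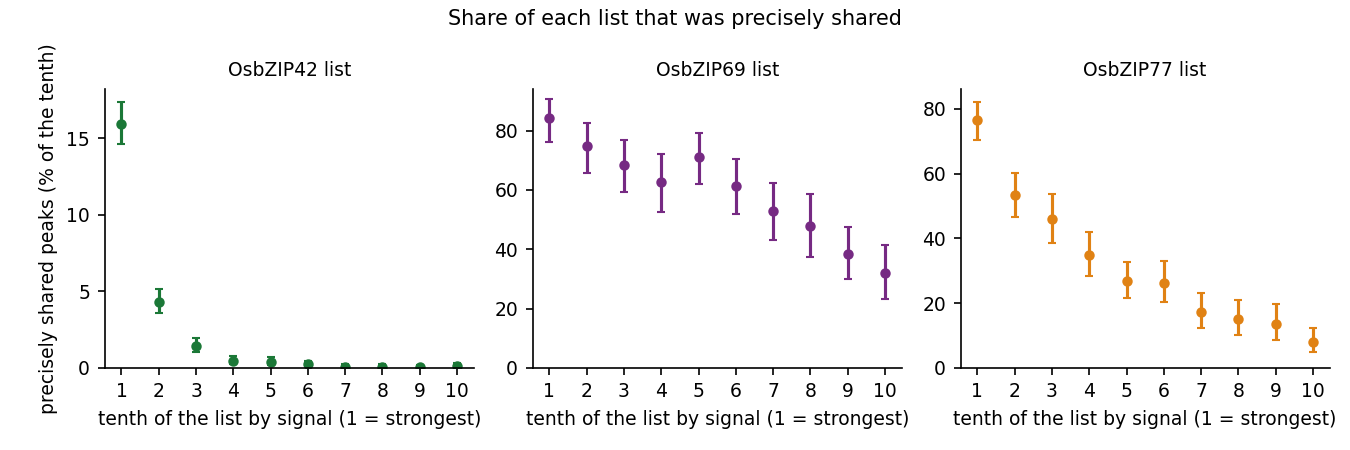
Percentage of peaks that were precisely shared (y axis) in each 10% step of a list by signal (x axis, 1 is the strongest), in the OsbZIP42, OsbZIP69 and OsbZIP77 lists, with exact 95% intervals that cover the counting of peaks. The strongest 10% holds 16.0%, 84.4% and 76.7% in that order, and the weakest 10% holds 0.106%, 31.8% and 7.98%; the y axes differ.

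Strong peaks of either FD protein were mostly precisely shared. In the OsbZIP69 list the share of members was 84.4% (76.2 to 90.6) in the strongest 10% and 31.8% (23.3 to 41.4) in the weakest. In the OsbZIP77 list it was 76.7% (70.3 to 82.3) and 7.98% (4.87 to 12.2). In the OsbZIP42 list it was 16.0% (14.6 to 17.4) in the strongest 10%, 4.33% (3.61 to 5.15) in the next and 0.106% (0.0219 to 0.309) in the weakest. Members made up 83 of the 100 strongest OsbZIP69 peaks, 80 of the 100 strongest OsbZIP77 peaks and 33 of the 100 strongest OsbZIP42 peaks.

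Sites near the top of every list were counted by their worst rank. All 3 ranks were within the top 5% at 18 sites, within the top 10% at 64, within the top 25% at 162 and within the top 50% at 345. The OsbZIP69 list held 92 members in its strongest 10% and 209 in its top 25%, so the counts at these limits could not exceed those numbers. Of the 656 sites, 209 were in the top 25% of OsbZIP69 and 328 in the top 25% of OsbZIP77, and 162 were in both. Ranks also differed widely in both directions, with 76 sites in the top 25% of OsbZIP77 but the lower 50% of OsbZIP69, and 14 sites the other way round. The members cover 59.3% of the OsbZIP69 list and 31.8% of the OsbZIP77 list, so these numbers do not compare the proteins. Of the 15 sites in the lower 50% of OsbZIP42, 12 were also in the lower 50% of both FD lists and 0 reached the top 25% of either. A further 38 sites were in the top 10% of OsbZIP42 and in the lower 50% of both FD lists.

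The leading sites are given with their 3 signals. At chr10:22328279-22328479, the member with the best worst rank, OsbZIP42 reached 433, OsbZIP69 168 and OsbZIP77 80. At chr9:17092454-17092654 it was 509, 144 and 87 in the same order, the highest OsbZIP42 signal among members. At chr7:11384541-11384741 it was 185, 141 and 84, with OsbZIP77 near its level at the former sites and OsbZIP42 lower. At chr5:13708789-13708989 it was 390, 215 and 55.4, the highest OsbZIP69 signal among members. The sites chr2:23448159-23448359 and chr10:19729183-19729383 completed the leading 6, with 248, 120 and 58 at the former and 168, 117 and 55 at the latter. OsbZIP42 stood 1 bp to the right of OsbZIP69 at 3 of these 6 sites and 1 bp to the left at the other 3.

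Other chromosomes had lower leaders. The best worst rank was held by chr12:24465091-24465291 (OsbZIP42 170, OsbZIP69 160 and OsbZIP77 51.9), chr8:5788765-5788965 (130, 111 and 61.9), chr4:28891097-28891297 (123, 104 and 46), chr1:37274995-37275195 (113, 117 and 46), chr6:22662523-22662723 (245, 90 and 61), chr3:32591399-32591599 (106, 118 and 39) and chr11:4975624-4975824 (293, 74.8 and 56.2) on those chromosomes. OsbZIP69 exceeded OsbZIP42 at the leaders of chromosomes 1 and 3. At the bottom, the member with the poorest worst rank, chr10:3744140-3744340, had 56.6 for OsbZIP42 and 10 for each FD protein. It was followed by chr11:20727313-20727513 with 51, 14 and 10 and by chr10:1300710-1300910 with 79, 10 and 12. All 3 of these were near the floor of an FD list but in the upper 25% of the OsbZIP42 list.

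OsbZIP42 had the highest signal at most sites, and the FD proteins were close to each other. The median ratio of OsbZIP69 to OsbZIP42 was 0.342 (0.316 to 0.367), with the middle 50% of sites between 0.215 and 0.549 and extremes of 0.0304 and 1.98. The median ratio of OsbZIP77 to OsbZIP42 was 0.301 (0.286 to 0.318), with quartiles of 0.198 and 0.429 and extremes of 0.0351 and 1.55. The median ratio of OsbZIP69 to OsbZIP77 was 1.10 (1.05 to 1.15), with quartiles of 0.800 and 1.63 and extremes of 0.344 and 7.13. Since the scales are unmatched, the medians do not rank the proteins by affinity, whereas the spread around them does not depend on a constant factor between libraries.

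OsbZIP69 exceeded OsbZIP42 at 37 sites, or 5.64%, against 4.91% of the 815 sites within 100 bp, most of which are the same sites. OsbZIP77 exceeded OsbZIP42 at 9 sites, or 1.37%, against 1.23%. OsbZIP69 exceeded OsbZIP77 at 369 sites, or 56.2%, against 56.3%, and both were equal at 25. The members made up 80.5% of the wider set, so its shares were bound to be near. The comparison cannot tell whether any of these shares is particular to the precise sites.

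The ratio between the FD proteins varied least. The SD of the log2 ratio across sites was 0.69 between OsbZIP69 and OsbZIP77, 0.84 between OsbZIP77 and OsbZIP42 and 1.01 between OsbZIP69 and OsbZIP42. The ratio stayed within 2-fold of its own median at 565 sites (86.1%), 501 sites (76.4%) and 435 sites (66.3%) in the same order, and left it by more than 4-fold at 1, 8 and 29 sites. The range of levels differed between the proteins as well. The SD of log2 signal across the sites was 0.91 in OsbZIP42, 0.88 in OsbZIP69 and 0.55 in OsbZIP77, so OsbZIP77 had the narrowest span. Spearman's rho of signal across the 656 sites, which share their libraries, was 0.57 between the FD proteins, against 0.38 for OsbZIP42 with OsbZIP77 and 0.33 for OsbZIP42 with OsbZIP69. These values are descriptions of single libraries, and the differences between them were not tested.

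**Figure D3:**
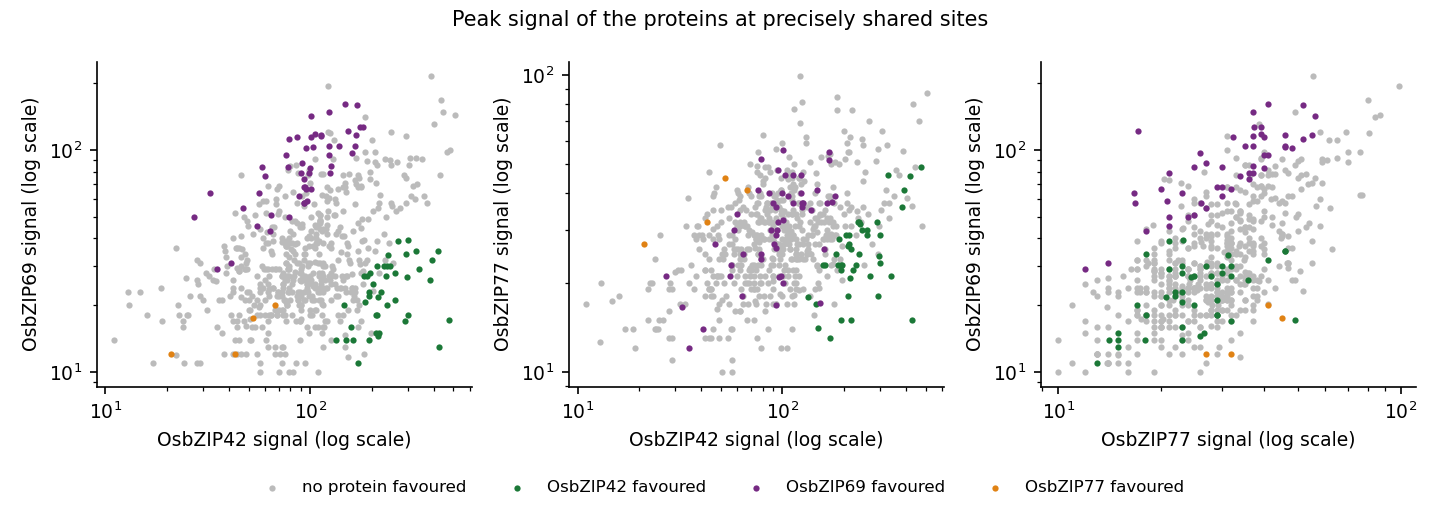
Authors' peak signal of one protein against another at the 656 precisely shared sites, 1 point a site, log scales on both axes. Coloured points are sites at which one protein exceeded both others by more than 2-fold after each was divided by its median over the sites (43, 50 and 4 sites in the order OsbZIP42, OsbZIP69 and OsbZIP77).

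To see whether ratios moved with the strength of a site, sites were sorted by the protein outside the ratio. Sorted by OsbZIP42, the median ratio of OsbZIP69 to OsbZIP77 was 1.06 (1 to 1.12) at the weakest 219 sites, with OsbZIP42 signals of 11 to 76, and 1.27 (1.08 to 1.35) at the strongest 219, with signals of 121 to 509. Sorted by OsbZIP77, the ratio of OsbZIP69 to OsbZIP42 was 0.320 (0.276 to 0.355) at the weakest sites, 0.292 (0.261 to 0.330) in the middle and 0.412 (0.368 to 0.450) at the strongest. Sorted by OsbZIP69, the ratio of OsbZIP77 to OsbZIP42 stayed between 0.291 and 0.312, and its intervals overlapped. Of these, the interval of the strongest sites stood apart from the others only for the ratio of OsbZIP69 to OsbZIP42.

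**Figure D4:**
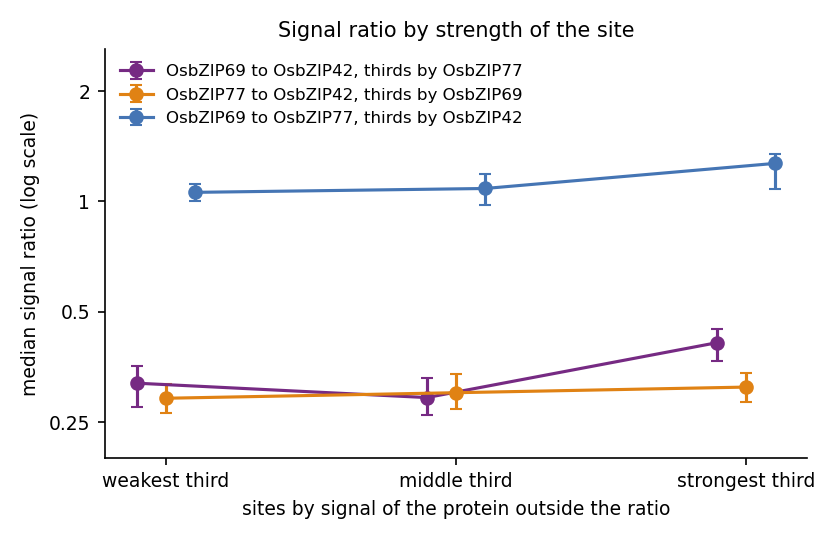
Median signal ratio (y axis, log scale) at the weakest, middle and strongest sites, sorted by the signal of the protein that is not in the ratio (x axis); bars are 95% order-statistic intervals over sites. The ratio of OsbZIP69 to OsbZIP42 is 0.320, 0.292 and 0.412 from weak to strong, and that of OsbZIP77 to OsbZIP42 lies between 0.291 and 0.312.

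Sites that favoured one protein were then sought after dividing each signal by that protein's median over the sites (96, 29 and 28.6 in the order OsbZIP42, OsbZIP69 and OsbZIP77). A protein was favoured when its scaled signal exceeded both others by more than 2-fold, and low when it was under both by more than 2-fold. Most sites, 483 of 656 or 73.6% (70.1 to 77), met neither condition for any protein. OsbZIP42 was favoured at 43 sites, or 6.55% (4.78 to 8.73), against 9.20% of the 815 wider sites. OsbZIP69 was favoured at 50, or 7.62% (5.71 to 9.93), against 7.24%. OsbZIP77 was favoured at 4, or 0.610% (0.166 to 1.55), against 0.613%. OsbZIP42 was low at 52 sites, or 7.93% (5.98 to 10.3), against 6.99%. OsbZIP69 was low at 8, or 1.22% (0.528 to 2.39), against 1.84%, and OsbZIP77 was low at 20, or 3.05% (1.87 to 4.67), against 3.44%. The 656 members made up 80.5% of the wider sites, so closeness to this background was largely built in. The background lay within the interval of each share except for the sites favouring OsbZIP42. That exception rests on scaling the wider set by the medians of the members: scaled by its own medians, the wider set had 60 of 815 sites favouring OsbZIP42 in place of 75. The sites left out were not counted on their own, so the comparison cannot tell whether any share is particular to the precise sites. The lists also end at similar signals, with lowest values of 9 in OsbZIP42, 9.2 in OsbZIP69 and 9.5 in OsbZIP77. Since the median over the sites was 96 for OsbZIP42 but 29 and 28.6 for the FD proteins, OsbZIP42 had more room to fall below its median. The counts of sites low in each protein therefore do not compare the proteins. The margin was 2-fold for each protein, while the SD of log2 signal was 0.91 in OsbZIP42, 0.88 in OsbZIP69 and 0.55 in OsbZIP77. The counts of favoured sites therefore do not compare the proteins either. The calls are relative to the median over the sites, and they turn on that choice. Scaled by the medians of the whole lists, 440 sites favoured OsbZIP42, 0 favoured either FD protein and 0 were low in OsbZIP42. With signals replaced by normal scores of their ranks, 62 sites favoured OsbZIP42, 42 favoured OsbZIP69 and 23 favoured OsbZIP77. The margin there was 1 unit of score in place of 2-fold, so these counts and those above have unlike limits.

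Sites favouring OsbZIP42 were strong OsbZIP42 sites with FD signals somewhat under their medians. Over the 43 sites the OsbZIP42 signal ran from 134 through a median of 222 to 476, the OsbZIP69 signal from 11 through 23 to 39.2 and the OsbZIP77 signal from 13 through 24.5 to 49. The clearest, chr5:4281261-4281461, had OsbZIP42 at 427, OsbZIP69 at 13 and OsbZIP77 at 15, and its scaled OsbZIP42 signal was 8.48 times the next. At chr1:14043842-14044042 the signals were 216, 15 and 15, with a margin of 4.29-fold. At chr11:21898677-21898877 they were 171, 11 and 13 (3.92-fold), and at chr5:21511326-21511526 they were 193, 14 and 15 (3.83-fold). At each of these 4 sites the next OsbZIP42 peak was more than 2 kb away, between 2911 and 21109 bp, so a neighbouring peak of that list did not share the 201 bp interval.

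Sites low in OsbZIP42 had FD signals near the medians over all sites. Over the 52 sites the OsbZIP42 signal had a median of 38.8 and a highest value of 125, against medians of 32.5 for OsbZIP69 and 29 for OsbZIP77. The lowest was chr2:25396193-25396393, with 13 for OsbZIP42 and 20 for each FD protein, a margin of 5.09-fold. The next was chr4:19642669-19642869, with 11, 14 and 17 (4.21-fold). At both of these named sites every protein was below its median over the sites, and OsbZIP42 was near the lowest signal of its list, 9. The OsbZIP42 median lay further above the lowest signal of its list than the medians of the FD proteins did. Whether that accounts for margins this wide was not tested.

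Sites favouring OsbZIP69 had signals of the other proteins near their medians over all sites. Over the 50 sites the OsbZIP69 signal ran from 29 through 84 to 162, with OsbZIP42 at a median of 95.3 and OsbZIP77 at 33.2. At chr3:1448909-1449109 OsbZIP69 had 148, OsbZIP42 124 and OsbZIP77 37, a margin of 3.94-fold. At chr6:5220032-5220232 the values were 64 for OsbZIP69, 32.4 for OsbZIP42 and 16.6 for OsbZIP77 (3.80-fold), with another OsbZIP42 peak 126 bp away. At chr12:3635162-3635362 they were 162, 148 and 41 (3.62-fold). At chr9:16617883-16618083 they were 115, 100.5 and 32.4 (3.50-fold), with another OsbZIP42 peak 51 bp away. The widest gap between the FD proteins, chosen after its values were seen, was at chr7:29138766-29138966, where OsbZIP69 had 122 and OsbZIP77 17.1, and where a second OsbZIP77 peak stood 108 bp away.

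OsbZIP69 was low at few sites. At chr4:31665492-31665692 it had 11.7, against 152 for OsbZIP42 and 34 for OsbZIP77, a margin of 2.95-fold. At chr6:1468872-1469072 it had 17.1 against 476 and 49 (2.91-fold), although a second OsbZIP69 peak stood 81 bp away. That second site also counted as favouring OsbZIP42, as 1 of 4 sites that favoured one protein and were low in another.

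The 4 sites favouring OsbZIP77 had OsbZIP42 and OsbZIP69 signals below the medians over all sites, 96 and 29. They were chr9:10336172-10336372 (45 for OsbZIP77, 17.5 for OsbZIP69 and 52.7 for OsbZIP42), chr7:19446235-19446435 (32, 12 and 43), chr11:25947898-25948098 (27, 12 and 21) and chr5:23362652-23362852 (41, 20 and 67.1). Their margins were 2.61-, 2.50-, 2.28- and 2.05-fold. The 20 sites low in OsbZIP77 had median signals of 283 (OsbZIP42), 82.7 (OsbZIP69) and 29 (OsbZIP77). That OsbZIP77 median was near the one over all sites, 28.6, whereas those of the other proteins were well above theirs. Low here is thus relative to the other proteins at these sites. Leading them were chr12:24058805-24059005, with 480, 100 and 31 (3.18-fold), and chr7:1311162-1311362, with 404, 131 and 38.6 (3.11-fold).

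Sites favouring a protein were not gathered on 1 chromosome. Those favouring OsbZIP42 lay on all 12 chromosomes, with at most 7 on one (chromosome 5), and those favouring OsbZIP69 also lay on all 12. The side of the OsbZIP42 centre split evenly among them. It stood to the right at 21 of the 43 sites favouring OsbZIP42 and at 23 of the 50 favouring OsbZIP69.

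Precisely shared sites lay far apart. Of 644 gaps between neighbours on a chromosome the median was 366734 bp (326179 to 409962), 92 exceeded 1 Mb, 35 were within 10 kb and 8 were within 200 bp. The closest were pairs of OsbZIP69 peaks 1 bp apart that shared both other peaks. At chr10:10233005-10233205 and its neighbour the OsbZIP69 signals were 28.6 and 28.4 beside a single OsbZIP42 peak of 45 and a single OsbZIP77 peak of 19. At chr9:12781232-12781432 and its neighbour they were 47.8 and 48.2 beside 112 and 34. These pairs are the reason why 656 OsbZIP69 peaks matched 654 peaks of each other list, and each is 1 place counted as a pair.

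The remaining 6 pairs within 200 bp, all but the closest of them named after their values were seen, had separate peaks of every protein, and the higher signal did not always fall on the same member of a pair for each protein. At peaks this close the deposited signals were rarely whole numbers, unlike those of peaks standing alone, and whether a total was shared out between the members of a pair was not tested. On chromosome 11, centres at 3303152 and 3303208 had OsbZIP42 signals of 142 and 195 and OsbZIP69 signals of 34.7 and 79.3, but OsbZIP77 signals of 30.4 and 26.6. On chromosome 1, centres at 11237514 and 11237608 had OsbZIP42 signals of 114 and 250 and OsbZIP69 signals of 20.3 and 55.7, whereas OsbZIP77 had 41.1 and 22.9. On chromosome 3, centres at 14236570 and 14236668 had OsbZIP42 signals of 299 and 73.4 and OsbZIP69 signals of 39.2 and 27.8 against OsbZIP77 signals of 23.2 and 35.8. In these 3 pairs OsbZIP77 was higher at the centre where the others were lower. On chromosome 12, by contrast, centres at 24465097 and 24465191 rose together, with OsbZIP42 at 55.2 and 170, OsbZIP69 at 45.5 and 160 and OsbZIP77 at 21.1 and 51.9. On chromosome 3 at 27323285 and 27323360 OsbZIP69 had 45.7 and 44.3, and on chromosome 10 at 22486859 and 22487017 it had 46.5 and 39.5, while the others were higher at the latter centre.

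Other OsbZIP42 peaks were often close to a precisely shared one. Another OsbZIP42 peak lay within 200 bp of 156 of the 654 matched OsbZIP42 peaks, or 23.9% (20.6 to 27.3), and of 12.8% (12.4 to 13.2) of the remaining 27669. Within 1000 bp the shares were 40.8% (37.0 to 44.7) and 33.0% (32.4 to 33.5). The matched peaks are stronger than the rest of that list, and this was not adjusted for. In the FD lists a second peak within 200 bp was rare, at 4.73% (3.23 to 6.64) of matched and 4.21% (2.56 to 6.5) of other OsbZIP69 peaks and at 3.36% (2.12 to 5.05) and 2.14% (1.45 to 3.03) of OsbZIP77 peaks. Where OsbZIP42 had such a neighbour, the ratio of OsbZIP77 to OsbZIP42 had a median of 0.260 (0.239 to 0.286), against 0.313 (0.298 to 0.337) without one. The ratio of OsbZIP69 to OsbZIP42 had medians of 0.327 (0.282 to 0.377) and 0.346 (0.316 to 0.372), with overlapping intervals.

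Every chromosome carried precisely shared sites, from 29 on chromosome 9 to 80 on chromosome 1. Per Mb there were 1.76 sites over all chromosomes, with the density lowest on chromosomes 9 (1.27) and 4 (1.38) and highest on chromosomes 5 (2.01) and 6 (1.99). As a share of the OsbZIP42 peaks there, the sites ran from 1.64% (1.09 to 2.36) on chromosome 9 to 3.09% (2.35 to 3.98) on chromosome 11 and 3.08% (2.31 to 4.02) on chromosome 12. As a share of OsbZIP69 peaks they ran from 53.7% (39.6 to 67.4) on chromosome 9 to 68.7% (58.6 to 77.6) on chromosome 2, and of OsbZIP77 peaks from 26.8% (21.9 to 32.3) on chromosome 1 to 37.7% (30.0 to 46.0) on chromosome 11. For each list the intervals of the lowest and the highest chromosome overlapped, barely so for OsbZIP42. The median ratio of OsbZIP69 to OsbZIP42 ran from 0.274 on chromosome 8 to 0.415 on chromosome 2.

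**Figure D5:**
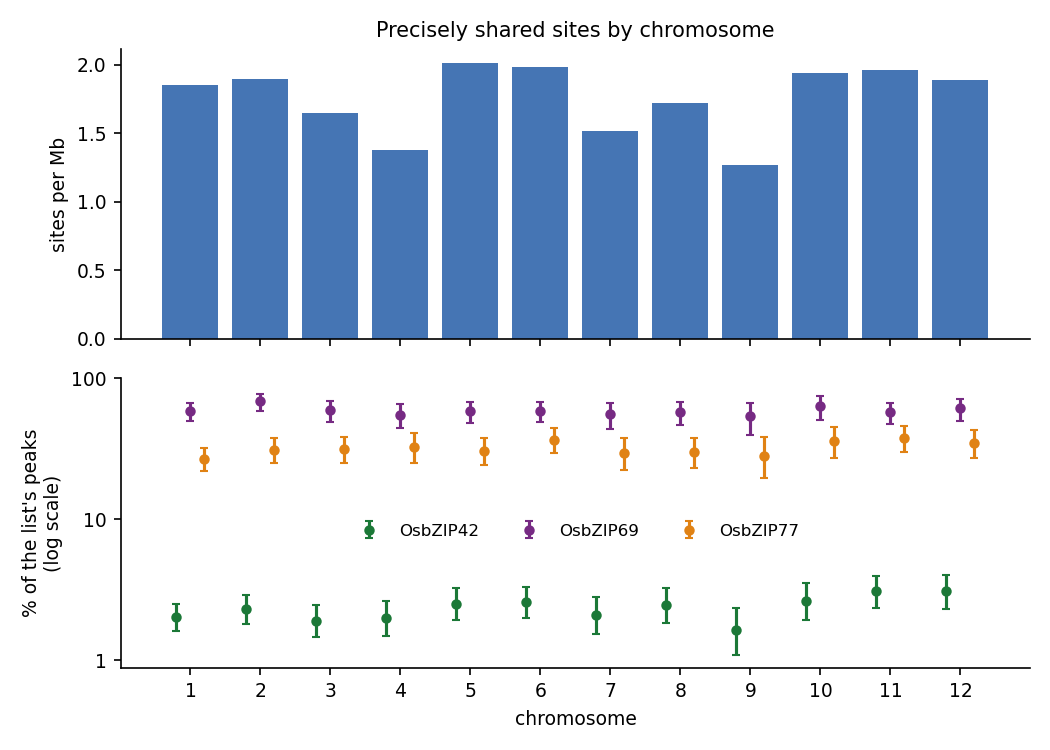
Upper panel: precisely shared sites per Mb on each of the 12 chromosomes, from 1.27 on chromosome 9 to 2.01 on chromosome 5. Lower panel: the same sites as a percentage of each protein's peaks on the chromosome (log scale), with exact 95% intervals over peaks; the OsbZIP42 share runs from 1.64% to 3.09%.

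Along the chromosomes the sites thinned towards the middle, as did the OsbZIP42 list itself. With each chromosome cut into 10 equal parts up to its furthest peak, the counts over all chromosomes were 74, 81, 50, 36, 38, 55, 65, 75, 93 and 89. As a share of the OsbZIP42 peaks in each part, they ranged from 1.81% (1.27 to 2.50) in the fourth to 2.66% (2.12 to 3.30) in the second, with overlapping intervals. Of 366 whole 1 Mb intervals 71 held no site, the median held 1 and the highest count was 10, on chromosome 12 from 3 to 4 Mb, where 98 OsbZIP42 peaks lay. That interval included the site at chr12:3635162-3635362 that favoured OsbZIP69 and another, centred at 3437742, that favoured OsbZIP42 with 301 against 18 for OsbZIP69 and 29 for OsbZIP77. The widest stretch without a site was 5.78 Mb on chromosome 1, between centres at 14043942 and 19826946. It held 283 OsbZIP42, 5 OsbZIP69 and 12 OsbZIP77 peaks. The next was 3.94 Mb on chromosome 9, between 1337370 and 5279084, with 153, 2 and 5.

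None of the 656 sites had a HALO-GST centre within 1000 bp (a count of 0 that limits the share to 0.457%, by counting error), and 8 had one within 10 kb. The nearest, at chr5:29603984-29604184, was 2110 bp from a HALO-GST centre and had OsbZIP42 at 96, OsbZIP69 at 40 and OsbZIP77 at 36, each at or above its median over the sites. The bZIP lists had been called against a negative control, so places rich in control reads were discounted beforehand. The control list also held only 194 peaks over 372.72 Mb. How often other bZIP peaks lay as near to a control peak was not computed, so the count of 0 is not read as particular to these sites.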

How the data were processed

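DAP-seq libraries of OsbZIP42, OsbZIP69, OsbZIP77 and HALO-GST (1 library each) were grouped by their titles. The submitters' processing notes name Bowtie2 2.2.8 as aligner, and the sources used here give no build. Per the deposited file names, peaks were called with GEM on single libraries, the bZIP lists against a negative control. The authors' deposited signal per peak has no stated unit or scaling, and read depth is unknown. Deposited −log10 q-values start at 2.00 and were used only to shorten lists. All intervals are 201 bp wide, and coordinates are 1-based.

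Centres were matched to the nearest centre within 10 bp with Python 3.11.15, numpy 2.4.6, pandas 2.3.3 and scipy 1.17.1. The code was tested on simulated lists. Shares carry exact (Clopper-Pearson) 95% intervals and medians order-statistic 95% intervals. Both cover the counting of sites alone. No test between proteins is possible with 1 library each. The members and lists were chosen with earlier results of these data known. Named sites were the 6 with the best worst rank, the 3 with the poorest, the 4 most and 2 least favoured per protein, the 3 closest pairs and the best of each chromosome. The gene table at hand is of another assembly and was not used.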

Additional observations from a re-analysis of the deposited data

How the results depend on the processing

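For 21 results, 132 values were computed under alternatives, 120 of them planned and 12 added after seeing the data; 89 stayed within 1.5 times a main count, within the main interval of a median or share, or within 0.05 of a main rho. Restricting every list to its better 50% of q-values left 334 sites and moved the median OsbZIP42 rank to 9.08%, the ratio of OsbZIP69 to OsbZIP42 to 0.410, that of OsbZIP69 to OsbZIP77 to 1.35, the rho of OsbZIP42 with OsbZIP77 to 0.30 and the median gap to 651840 bp. Of these 334 sites, 25, 11 and 2 favoured OsbZIP42, OsbZIP69 and OsbZIP77, against 43, 50 and 4 of the 656. Those low in OsbZIP42 and OsbZIP77 numbered 17 and 8, against 52 and 20. The set itself shrank from 656 to 334 sites, and the counts did not all follow it. Sites favouring OsbZIP69 fell more steeply than the set, sites favouring OsbZIP42 less steeply, and sites low in OsbZIP69 stayed at 8. A window of 100 bp gave a median OsbZIP42 rank of 5.36%, ratios to OsbZIP42 of 0.313 for OsbZIP69 and 0.280 for OsbZIP77, 17 sites low in OsbZIP69, a median gap of 285945 bp and 23 gaps within 500 bp. A window of 20 bp put OsbZIP42 1 bp from OsbZIP69 at 90.3% of sites and OsbZIP77 on the OsbZIP69 base at 95.7%. Counts of favoured sites followed the margin by construction. At 1.5-fold, 102, 122 and 22 sites favoured OsbZIP42, OsbZIP69 and OsbZIP77 and 114, 40 and 53 were low in OsbZIP42, OsbZIP69 and OsbZIP77. At 3-fold these counts were 10, 8 and 0 and 6, 0 and 2. Scaling by whole-list medians, among which OsbZIP42 members are far above the median, gave 440, 0 and 0 favoured and 0, 43 and 44 low. Normal scores of ranks, with a margin of 1 unit of score, gave 23 sites favouring OsbZIP77, 38 low in OsbZIP69 and 32 low in OsbZIP77. The 494 sites without another peak of the same list within 200 bp, an alternative chosen after seeing the data, had 33, 4 and 11 low in OsbZIP42, OsbZIP69 and OsbZIP77. No paired analysis was possible because there was a single library per protein, and for the same reason none could be left out. Unknown depth limits statements on sites missing from the FD lists.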

Other observations

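The deposited signal was a whole number at most peaks that stood alone and at few peaks with a close neighbour. Where the next peak of the list lay more than 1000 bp away, 77% of OsbZIP42, 92.1% of OsbZIP69 and 89.9% of OsbZIP77 signals were whole, to the single decimal the files give. Where another peak lay within 200 bp these shares were 10.4% of 3689, 0% of 50 and 9.62% of 52. Among the precisely shared peaks 61.3% of OsbZIP42, 88.1% of OsbZIP69 and 87.6% of OsbZIP77 signals were whole. The part that close neighbours play in the ratios at such sites was not tested.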
